A study of Homo sapiens with 18 samples.

Results

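LNCaP cells, an androgen-responsive human prostate cancer line, were compared after 48 h in M2 macrophage medium and in control medium. The comparison rests on 6 of the 18 libraries of polyadenylated RNA in the series, 3 per group, taken by their labels. All 6 come from wild-type LNCaP cells that had first been held in low-serum medium. The M2 cells then received medium conditioned by M2-polarised macrophages of the THP-1 monocytic leukaemia line, diluted at a ratio of 1 to 4 with RPMI that contained 10% heat-inactivated serum. A further 3 libraries from cells in medium of unpolarised THP-1 macrophages (M0), diluted the same way, served as a second reference. The control cells received the RPMI with 10% serum alone. Antibiotics and glutamine were part of the culture and control media, and the other 9 libraries of the series come from cells in M1 macrophage medium and enter here the estimate of the spread, the filter on low counts and the choice of transcript per gene, but no comparison. What macrophages release and what they use up from the medium cannot be told apart in a comparison with fresh medium. THP-1 is 1 line, and which agents polarised it is not given in the sources used here. The labels number the replicates without saying that they are separate cultures, so p-values measure only the spread between these libraries, which may be technical. The counts that fell on genes were 31940226, 30456674 and 24584134.5 in the M2 libraries, 26185399 to 30182359 in the M0 libraries, and 29619962.5, 28200686 and 31337770 in the control libraries. KLK3 and TMPRSS2, which mark luminal prostate cells, were abundant in every library, while the macrophage gene list is described near the end.

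M2 macrophages, the alternatively activated form, are known for tissue repair and for supporting tumours. The androgen receptor is the transcription factor on which luminal prostate cancer cells depend. When androgen binds, it enters the nucleus and raises secreted proteases such as prostate-specific antigen, and it lowers another group of genes. Hypoxia-inducible factors form a second well-known program, which is switched off by oxygen-dependent prolyl hydroxylases and otherwise raises glucose uptake, glycolysis and vessel growth.

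M2 medium changed LNCaP cells by small amounts. Of 17063 genes tested with edgeR, 911 were higher in M2 medium than in control (5.34% of those tested) and 575 were lower (3.37%), together 8.71%. The median size of these changes was 0.29 on the log2 scale, and 11 genes rose and 19 fell by at least 2-fold. Every M2 library stood above every control library in 1986 genes (11.6%) and below them in 1921 genes (11.3%). Among the gene lists, 17 of 36 androgen receptor targets and 13 of 35 hypoxia and glycolysis genes fell. Of 11 androgen-repressed genes 4 rose, as did 18 of 30 ribosomal protein genes and 26 of 33 respiratory chain genes. The counts depended on single libraries. The genes described first are therefore those that kept their call under each of 17 other settings in which they could be tested: 69 higher genes (0.404%) and 39 lower genes (0.229%), here called stable. M0 medium over the same controls had 1206 genes higher (7.07%) and 770 lower (4.51%). Of the 69 stable rises 55 were also called higher in M0 medium, and of the 39 stable falls 23 were also called lower. Levels are given as CPM, counts scaled to library size by TMM, not divided by transcript length.

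The number of genes called depended on which libraries entered the fit. Without M2 replicate 1, 86 genes were higher (0.498%) and 79 lower (0.457%). Without control replicate 1 they were 99 (0.573%) and 63 (0.365%), while a fit of only M2 and control libraries gave 142 (0.877%) and 54 (0.333%). Without M2 replicate 3 the counts were 1559 and 1085. Of the 1486 genes called in the full fit, 85 higher and 76 lower kept their call without M2 replicate 1. All 1486 kept their direction under each library left out. These fits share most libraries with the full fit that picked the genes, so a kept direction says little. In the setting chosen after seeing the data, without the first replicates of both groups, 22 genes were higher (0.128%) and 28 lower (0.163%).

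**Figure D1:**
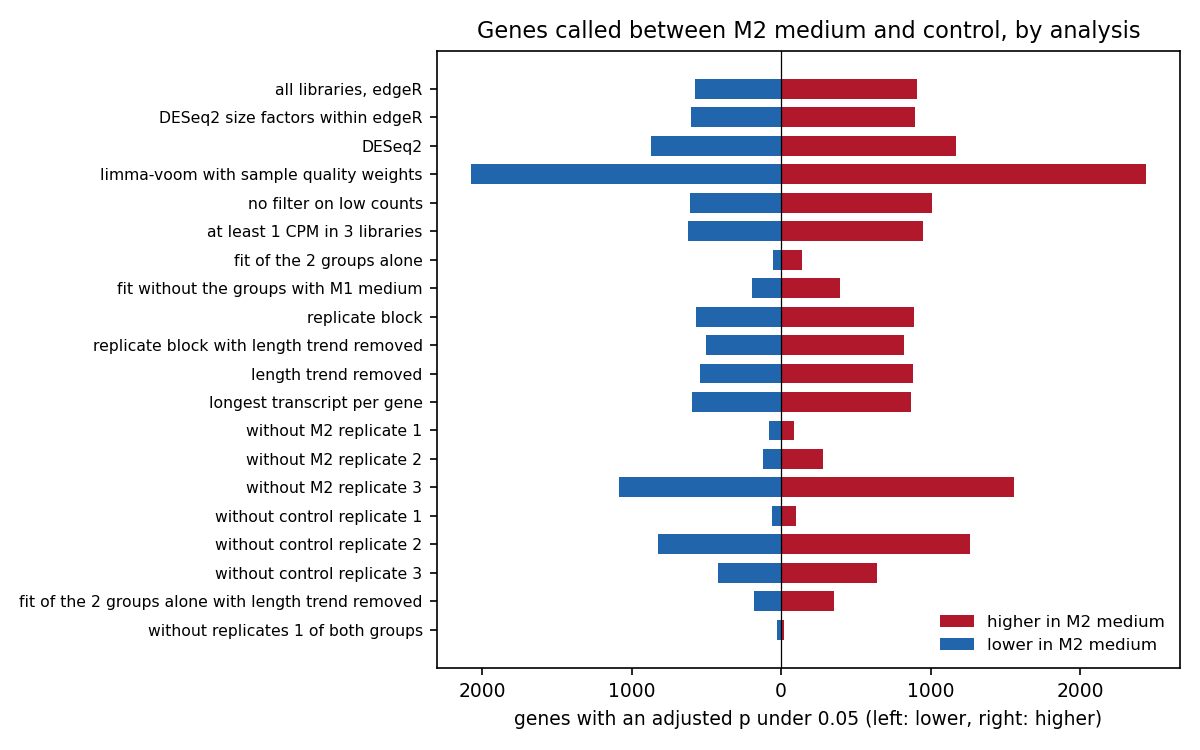
Number of genes with an adjusted p under 0.05 between M2 medium and control, lower to the left and higher to the right, in the edgeR fit of all libraries (top bar) and under each alternative. The counts range from 22 higher and 28 lower without the first replicates of both groups to 2442 and 2076 with limma-voom and sample quality weights.

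Of 36 androgen receptor targets tested, 17 fell in M2 medium and 0 rose, where 3.37% and 5.34% of all genes tested did. A negative log2 fold change was found in 33. The median log2 fold change of the list was -0.18, against -0.00399 over all genes tested, and 8 of the 17 were stable. SLC45A3 (chromosome 1, 205657851 to 205680509 in GRCh38.p14), a membrane transporter of prostate epithelium, was measured at 297, 287 and 317 CPM in M2 medium, against 422, 415 and 413 CPM in control. The groups did not overlap, and SLC45A3 fell by 28.0% (log2 fold change of -0.47, SE 0.05, adjusted p = 4.37e-05 by edgeR). MAF, a leucine zipper transcription factor, was at 19.6, 20.7 and 21.9 CPM in M2 medium, against 34.4, 30.6 and 32.6 CPM in control. Its M2 libraries all lay below the lowest control library, and it fell by 36.3% (log2 fold change of -0.65, SE 0.07, adjusted p = 4.37e-05 by edgeR). In bulk RNA, fewer cells that express a gene and less of its RNA per cell cannot be told apart.

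PMEPA1 (chromosome 20, 57648396 to 57711472), an androgen-induced membrane protein that limits TGF-beta signalling, was at 116.41, 118 and 141 CPM in M2 medium, against 184, 171 and 182 CPM in control. Its highest M2 library, replicate 3, still lay below the controls (log2 fold change of -0.52, SE 0.06, adjusted p = 4.77e-05 by edgeR). FKBP5, a co-chaperone that acts in feedback on steroid receptors, was at 131, 137 and 153 CPM in M2 medium, against 190.4, 179 and 201 CPM in control (log2 fold change of -0.44, SE 0.06, adjusted p = 0.00075 by edgeR). TMPRSS2, the serine protease gene whose promoter is often fused to ERG in prostate cancer, was at 834, 794 and 873 CPM in M2 medium, against 1097, 1021 and 1093 CPM in control (log2 fold change of -0.36, SE 0.05, adjusted p = 0.000663 by edgeR). NDRG1, which responds to androgen and to hypoxia, was at 215, 193 and 211 CPM in M2 medium, against 344, 315 and 302 CPM in control (log2 fold change of -0.64, SE 0.10, adjusted p = 0.00116 by edgeR).

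Among the kallikreins, which are secreted proteases of close sequence so that reads may be split between them, KLK2 was at 524, 456 and 477 CPM in M2 medium, against 609.5, 638 and 569.6 CPM in control (log2 fold change of -0.32, SE 0.06, adjusted p = 0.00575 by edgeR). KLK3 (chromosome 19, 50854915 to 50860764), the gene of prostate-specific antigen and the most abundant of the kallikreins named here, was at 3479.6, 3109 and 3172 CPM in M2 medium, against 3682, 3936 and 3521 CPM in control. Its M2 libraries also lay below the controls, and the difference did not pass (log2 fold change -0.19 ± 0.06 SE, edgeR adjusted p = 0.0601). KLK4, another kallikrein, had a log2 fold change of -0.19 ± 0.07 SE (edgeR adjusted p = 0.0917). Other androgen receptor targets that fell were C1orf116, CENPN, the transporter ABCC4, the repressor ZBTB16, the cold-sensing channel TRPM8, the kinase CAMKK2, TMEFF2 and the protease ADAMTS1, with log2 fold changes between -0.30 and -0.18. These 8 did not keep their call under all these settings.

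Of 11 androgen-repressed genes tested, 4 rose in M2 medium, all stable, and 1 fell, where 5.34% and 3.37% of all genes tested did. UGT2B17 (chromosome 4, 68537173 to 68576322), an enzyme that inactivates androgens by glucuronidation, was at 27.0, 26.2 and 22.7 CPM in M2 medium, against 14.0, 14.9 and 16.5 CPM in control. The groups did not overlap (log2 fold change of 0.74, SE 0.08, adjusted p = 4.37e-05 by edgeR). Its close relative UGT2B15, with which it may share reads, was at 10.3, 10.8 and 10.2 CPM in M2 medium, against 6.39, 7.03 and 7.85 CPM in control (log2 fold change of 0.56, SE 0.11, adjusted p = 0.00426 by edgeR). BCHE, a cholinesterase, was at 121, 107 and 101 CPM in M2 medium, against 78.6, 81.6 and 85.7 CPM in control (log2 fold change of 0.42, SE 0.06, adjusted p = 0.00075 by edgeR). DDC, an amino acid decarboxylase, was at 117, 119 and 108 CPM in M2 medium, against 87.2, 93.9 and 96.9 CPM in control (log2 fold change of 0.31, SE 0.06, adjusted p = 0.00323 by edgeR). All M2 libraries of these 4 genes lay above all control libraries. LOX, a collagen cross-linking enzyme of low abundance, was the member that fell, at 1.16, 1.16 and 1.19 CPM in M2 medium, against 2.5, 2.11 and 1.92 CPM in control (log2 fold change of -0.90, SE 0.22, adjusted p = 0.0155 by edgeR). The median log2 fold change over the 11 genes was -0.02, with 5 positive and 6 negative values.

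**Figure D2:**
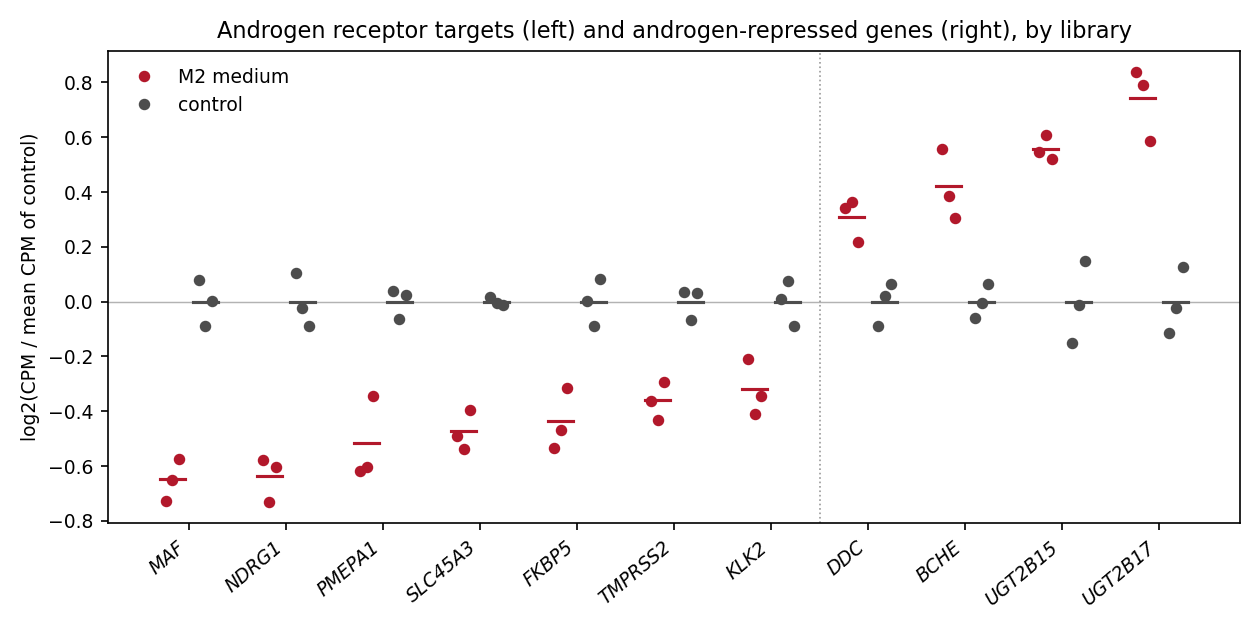
Levels of 7 stable androgen receptor targets (left of the dotted line) and the 4 stable androgen-repressed genes (right) in each library, as log2 of CPM over the mean CPM of control; points are libraries (red, M2 medium; grey, control) and short bars are group means. For all 11 genes the 3 M2 libraries lie on 1 side of the 3 control libraries, below for SLC45A3 and above for UGT2B17.

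In M0 medium, set against the same 3 control libraries, 10 of the 36 androgen receptor targets were lower and 1 was higher (4.51% and 7.07% of all genes). SLC45A3 stood at 344, 342 and 330.1 CPM there (M0 over control, log2 fold change of -0.30, SE 0.05, adjusted p = 0.00451 by edgeR). MAF stood at 25.5, 26.4 and 24.4 CPM (log2 fold change of -0.36, SE 0.07, adjusted p = 0.00864 by edgeR) and UGT2B17 at 23.7, 21.4 and 22.7 CPM (log2 fold change of 0.58, SE 0.08, adjusted p = 0.00106 by edgeR). The M0 libraries of SLC45A3 and MAF all lay between the M2 and the control libraries, and those of UGT2B17 overlapped with M2 and lay above control. In the direct test of M2 against M0 medium, 1 androgen receptor target was lower, NDRG1 (log2 fold change of -0.59, SE 0.10, adjusted p = 0.0113 by edgeR). SLC45A3 (M2 over M0, log2 fold change of -0.18, SE 0.05, adjusted p = 0.37 by edgeR), MAF (log2 fold change of -0.30, SE 0.07, adjusted p = 0.199 by edgeR) and UGT2B17 (log2 fold change of 0.16, SE 0.08, adjusted p = 0.923 by edgeR) did not pass. No other androgen receptor target passed the test of M2 against M0 medium. In the promoter windows described next, AGAACA, 1 arm of the element that the androgen receptor binds, searched on both strands, stood in 2 of 11 called targets with a window and in 1 of 15 others, against 9.82% of all windows.

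Hypoxia and glycolysis genes fell in M2 medium in 13 of 35 cases and rose in 0, with a median log2 fold change of -0.18 and 4 stable members. Over all genes tested, 3.37% fell and 5.34% rose. The RefSeq promoter windows of GRCh38.p14, which run from 250 bases before to 50 bases after a gene's start, were searched on both strands for ACGTG, the core of the element that hypoxia-inducible factors bind. It stood in 6 of the 12 windows of genes that fell and in 10 of the 20 windows of members that did not pass, against 25.9% of the 13041 windows of tested genes. The windows of 3 genes that fell, which the results below return to, are shown 5′ to 3′ with ACGTG or its reverse complement in capitals. They lie at chr3:4979187-4979486, plus strand for BHLHE40, at chr10:131981874-131982173, minus strand for BNIP3 and at chr17:28576846-28577145, minus strand for ALDOC.
BHLHE40: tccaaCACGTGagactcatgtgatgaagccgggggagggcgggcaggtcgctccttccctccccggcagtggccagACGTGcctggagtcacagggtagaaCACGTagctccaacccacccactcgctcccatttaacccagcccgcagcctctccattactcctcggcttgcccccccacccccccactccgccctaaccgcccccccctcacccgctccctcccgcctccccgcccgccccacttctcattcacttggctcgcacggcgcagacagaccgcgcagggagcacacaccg
BNIP3: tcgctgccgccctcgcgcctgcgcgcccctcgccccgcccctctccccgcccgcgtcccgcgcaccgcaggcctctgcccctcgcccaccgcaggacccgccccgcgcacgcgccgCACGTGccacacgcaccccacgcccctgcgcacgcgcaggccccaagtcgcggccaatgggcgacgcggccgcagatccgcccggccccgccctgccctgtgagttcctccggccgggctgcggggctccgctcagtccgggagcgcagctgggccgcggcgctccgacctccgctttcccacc
ALDOC: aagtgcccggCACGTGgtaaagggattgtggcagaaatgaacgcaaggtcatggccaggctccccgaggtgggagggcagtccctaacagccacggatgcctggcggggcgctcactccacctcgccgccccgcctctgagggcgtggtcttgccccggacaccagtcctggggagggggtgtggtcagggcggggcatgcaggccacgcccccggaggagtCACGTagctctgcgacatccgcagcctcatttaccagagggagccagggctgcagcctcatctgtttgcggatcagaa

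BHLHE40 (chromosome 3, 4979437 to 4985323), a transcriptional repressor of the circadian and hypoxic responses, had the lowest log2 fold change of the called members. It was at 40.3, 32.9 and 40.2 CPM in M2 medium, 51.1, 59.2 and 65.1 CPM in M0 medium and 64.2, 58.2 and 64.2 CPM in control. The M2 libraries lay below all the others, while the M0 and control libraries overlapped (M2 over control, log2 fold change of -0.72, SE 0.11, adjusted p = 0.000828 by edgeR, and M2 over M0, log2 fold change of -0.63, SE 0.11, adjusted p = 0.0113 by edgeR). P4HA2, a subunit of collagen prolyl hydroxylase, was at 13.3, 12.8 and 12.2 CPM in M2 medium, 15.6, 17.7 and 16.8 CPM in M0 medium and 18.3, 16.2 and 17.3 CPM in control. It too was lowest in M2 medium (M2 over control, log2 fold change of -0.43, SE 0.07, adjusted p = 0.00257 by edgeR). KDM3A, a histone demethylase, was at 41.9, 41.1 and 41.6 CPM in M2 medium, 49.8, 57.9 and 58.5 CPM in M0 medium and 55.1, 48.9 and 61.7 CPM in control (M2 over control, log2 fold change of -0.41, SE 0.08, adjusted p = 0.00517 by edgeR). Its M2 libraries again lay below all the others. VEGFA (chromosome 6, 43770211 to 43786487), the main growth factor for vessels, was at 104, 90.8 and 96.9 CPM in M2 medium, 118, 121 and 120.2 CPM in M0 medium and 128, 117 and 118 CPM in control. M2 overlapped with neither M0 medium nor control (M2 over control, log2 fold change of -0.32, SE 0.06, adjusted p = 0.00375 by edgeR, and M2 over M0, log2 fold change of -0.30, SE 0.06, adjusted p = 0.0363 by edgeR).

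Some genes of glucose uptake and glycolysis fell too, but no gene named in this paragraph was stable. SLC2A1, the glucose transporter GLUT1, fell by 18.8% in M2 medium and was at 128, 111 and 116.03 CPM in M2 medium, 139, 147 and 155 CPM in M0 medium and 146, 148 and 141 CPM in control (log2 fold change of -0.30, SE 0.06, adjusted p = 0.00427 by edgeR). The kinase PFKFB4, which makes an activator of glycolysis, fell by 27.6% (log2 fold change of -0.47, SE 0.09, adjusted p = 0.00586 by edgeR), and the hexokinase gene HK2 fell by 24.1% (log2 fold change of -0.40, SE 0.08, adjusted p = 0.00659 by edgeR). Phosphofructokinase PFKP (-0.31), the oxygen-sensing hydroxylase EGLN1 (-0.25), the isomerase GPI (-0.20) and MXI1, an antagonist of MYC (-0.18), fell by smaller amounts, all given as log2 fold changes over control. BNIP3, a mitophagy receptor, was at 138, 113 and 118 CPM in M2 medium, 155, 182 and 180.3 CPM in M0 medium and 150.2, 138 and 147 CPM in control. M0 medium stood above control and M2 medium below it (M2 over control, log2 fold change of -0.23, SE 0.07, adjusted p = 0.0384 by edgeR, and M2 over M0, log2 fold change of -0.48, SE 0.07, adjusted p = 0.00411 by edgeR). ALDOC, an aldolase, had the same order, with 175, 153 and 159.9 CPM in M2 medium, 217, 222 and 224 CPM in M0 medium and 189, 192 and 178 CPM in control (M2 over control, log2 fold change of -0.20, SE 0.06, adjusted p = 0.0419 by edgeR, and M2 over M0, log2 fold change of -0.44, SE 0.06, adjusted p = 0.00368 by edgeR). The lactate dehydrogenase gene LDHA (-0.17 in M2 over control, edgeR adjusted p = 0.102) and the glycolytic kinase gene PGK1 (0.07, edgeR adjusted p = 0.627) did not differ from control past the threshold. Nor did the glycolytic genes ALDOA, ENO2 and GAPDH.

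Most of the genes that separated M2 from M0 medium were hypoxia genes. In M2 against M0 medium edgeR called 0 genes higher and 18 lower (0.105% of 17063), with an unadjusted p under 0.05 in 927 genes in either direction. DESeq2 called 3 higher and 42 lower, and limma-voom with sample quality weights 15 and 129. Of the 35 hypoxia and glycolysis genes 12 were among the 18, and the list's median log2 fold change of M2 over M0 was -0.31. The 12 are BHLHE40, PFKFB4, BNIP3, ALDOC, PGK1, KDM3A, P4HA2, P4HA1, LDHA, BNIP3L, SLC2A1 and VEGFA. The others include ANGPT2, a ligand of vessel growth (-0.82), NDRG1 (-0.59), DIPK2A (-0.55), the stress-induced cytokine GDF15 (-0.49) and ANKZF1 (-0.28). Over all genes, 7.07% were higher and 4.51% lower in M0 medium than in control, and 5.34% and 3.37% in M2 medium. Against the shared control libraries, M0 medium had 10 hypoxia genes higher and 0 lower, with a median of 0.11, where M2 medium had 0 higher and 13 lower. PGK1, for example, was at 536, 446 and 419 CPM in M2 medium, 612, 640.1 and 622 CPM in M0 medium and 454, 465 and 420.1 CPM in control (M2 over M0, log2 fold change of -0.42, SE 0.08, adjusted p = 0.0243 by edgeR). The M0 libraries of PGK1 lay above all control libraries, and the M2 libraries overlapped with control. M2 replicate 1 was the highest M2 library of PGK1, and without it the log2 fold change over control was -0.05.

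The 18 calls between M2 and M0 medium depended on single libraries. None was kept without M2 replicate 2 or without M2 replicate 3, 4 were kept without M0 replicate 2 and 3 without M0 replicate 3. All 18 were still lower in M2 medium under each of these settings, which says little, since the fits share most libraries with the one that picked the genes. In the fit of M2 and M0 medium alone 2 were kept.

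**Figure D3:**
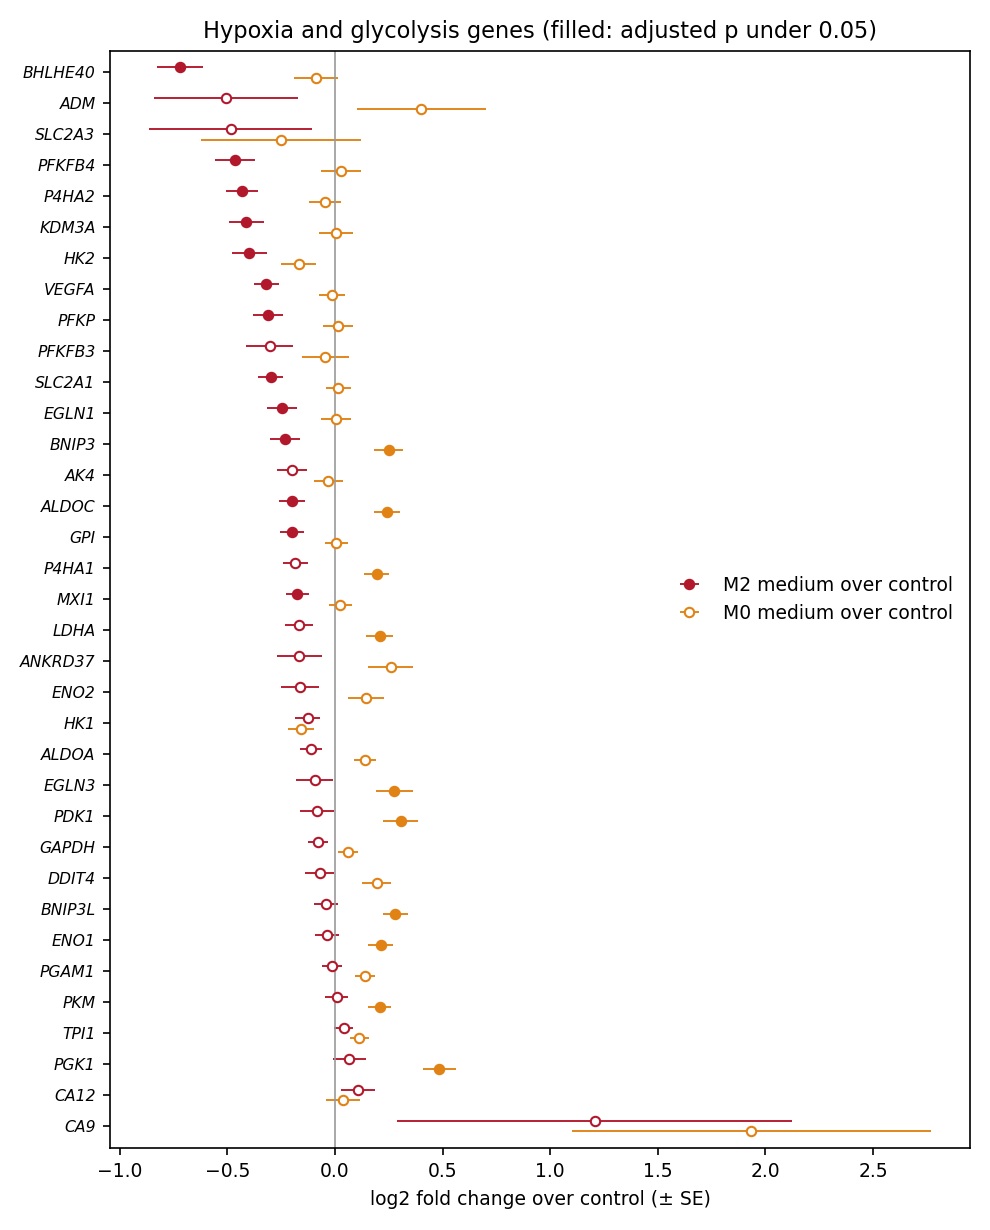
Log2 fold change over control with its standard error for the 35 hypoxia and glycolysis genes, in M2 medium (red) and M0 medium (orange), which share the 3 control libraries; filled points passed an adjusted p under 0.05. Filled red points all lie left of 0 (BHLHE40 lowest), and filled orange points all lie right of 0, as for PGK1.

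Outside the lists of androgen receptor targets and of hypoxia and glycolysis genes, the stable genes that fell most included IRS2. IRS2, an adaptor of the insulin and IGF receptors, was at 4.47, 3.47 and 3.92 CPM in M2 medium, against 7.44, 6.67 and 6.8 CPM in control (log2 fold change of -0.82, SE 0.15, adjusted p = 0.00323 by edgeR). CHRNA2, a nicotinic acetylcholine receptor subunit, was at 13.0, 14.9 and 17.5 CPM in M2 medium, against 24.3, 25.2 and 25.5 CPM in control (log2 fold change of -0.73, SE 0.11, adjusted p = 0.00075 by edgeR). In both genes the M2 libraries lay below all control libraries. CFAP251, a protein of motile cilia (-0.73 ± 0.12), NMNAT2, an enzyme of NAD synthesis (-0.69 ± 0.12), the zinc finger gene ZNF697 (-0.63 ± 0.11) and PGC, the protease precursor pepsinogen C (-0.56 ± 0.09), fell too, given as log2 fold changes ± SE. In M0 medium over the same controls IRS2 (-0.47 ± 0.14) and CHRNA2 (-0.46 ± 0.10) were also called lower. CFAP251 and NMNAT2 were not called there. DIPK2A, which was also lower than in M0 medium, was at 9.72, 10.5 and 10.7 CPM in M2 medium, 13.5, 16.1 and 15.6 CPM in M0 medium and 14.8, 13.7 and 15.0 CPM in control (M2 over control, log2 fold change of -0.50, SE 0.09, adjusted p = 0.00375 by edgeR). Among the other stable falls were the clock gene PER1 (-0.42), the magnesium transporter SLC41A1 (-0.48), the histone demethylase KDM4B (-0.42) and the transcription factor SOX4 (-0.39). Of the 8 protein-coding genes with the largest falls and a mean of at least 1 CPM, IRS2 was the 1 stable gene. FOS and LOX are described with their lists, and the others are SLC38A4, an amino acid transporter (-1.14 ± 0.32), AKAP12, a scaffold of protein kinase A (-1.11 ± 0.27), GPRASP1 (-1.03 ± 0.26), WEE2 (-0.94 ± 0.25) and the proteoglycan SPOCK1 (-0.86 ± 0.26). SLC38A4, the first of them, was at 0.656, 0.706 and 1.5 CPM in M2 medium, against 2.24, 1.79 and 2.11 CPM in control, without overlap.

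Of the stable genes that rose, OPTN, an autophagy receptor, was at 9.81, 10.975 and 10.0 CPM in M2 medium, against 5.96, 5.59 and 6.95 CPM in control (log2 fold change of 0.73, SE 0.08, adjusted p = 4.77e-05 by edgeR). DAPK1, a calcium-dependent kinase linked to cell death, was at 172, 173 and 143 CPM in M2 medium, against 99.965, 98.5 and 84.6 CPM in control (log2 fold change of 0.79, SE 0.13, adjusted p = 0.00192 by edgeR). The M2 libraries of OPTN and DAPK1 lay above all control libraries. SERPINI1, the protease inhibitor neuroserpin (0.68 ± 0.09), KLHDC8A (0.72 ± 0.12), the extracellular chaperone CLU (0.56 ± 0.08), PRAC1, a nuclear protein of prostate and colon (0.65 ± 0.10), and the sodium pump subunit ATP1B1 (0.26 ± 0.05) rose as well. In M0 medium over the same controls OPTN (0.76 ± 0.08) and DAPK1 (0.54 ± 0.13) were also called higher. KLHDC8A and ATP1B1 were not called there. TFRC, the transferrin receptor, was at 385, 391 and 380.3 CPM in M2 medium, against 281, 298 and 313 CPM in control (log2 fold change of 0.37, SE 0.05, adjusted p = 0.000697 by edgeR). BRDT, a bromodomain protein of the testis, and PROCR, the endothelial protein C receptor, were among the largest rises at low abundance (1.11 ± 0.30 and 0.78 ± 0.23 as log2 fold changes ± SE) and did not keep their call throughout.

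Some inflammatory genes rose in M2 medium. Of 25 NF-kB targets tested, 5 rose and 0 fell, where 5.34% and 3.37% of all genes tested did. Without M2 replicate 1 the number higher was 3, without control replicate 1 it was 2, and in the fit of M2 and control alone it was 1. RELB, the subunit of the noncanonical NF-kB pathway, was at 4.06, 4.27 and 4.12 CPM in M2 medium, 5.57, 4.74 and 4.61 CPM in M0 medium and 2.21, 2.07 and 2.92 CPM in control. It was the 1 stable gene of the list (M2 over control, log2 fold change of 0.78, SE 0.14, adjusted p = 0.00273 by edgeR). IL32, a proinflammatory cytokine, was at 6.4, 4.62 and 4.2 CPM in M2 medium, against 3.46, 2.95 and 2.76 CPM in control (log2 fold change of 0.75, SE 0.13, adjusted p = 0.00301 by edgeR). BIRC3, an inhibitor of apoptosis, was at 6.22, 6.16 and 6.06 CPM in M2 medium, against 4.48, 4.71 and 5.09 CPM in control (log2 fold change of 0.37, SE 0.09, adjusted p = 0.0149 by edgeR). NFKBIA, which encodes the inhibitor IkB-alpha, rose slightly (log2 fold change of 0.15, SE 0.05, adjusted p = 0.0497 by edgeR). Complement C3, the fifth, was at 0.0625, 0.128 and 0.238 CPM in the M2 libraries and had no count in the 3 control libraries, where 3 counts would be about 0.1 CPM, so no fold is given. The highest values of RELB were in M0 medium, and no NF-kB target differed between M2 and M0 medium.

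Of 36 type I interferon genes 2 rose and 1 fell, shares near those of all genes (5.34% and 3.37%), so the list as a whole shows no result. OAS1 (chromosome 12, 112906962 to 112933219), an antiviral sensor of double-stranded RNA, was at 2.5, 2.34 and 3.05 CPM in M2 medium, 1.84, 2.68 and 2.11 CPM in M0 medium and 1.09, 1.37 and 1.27 CPM in control. The M2 libraries lay above all controls (M2 over control, log2 fold change of 1.07, SE 0.16, adjusted p = 0.00114 by edgeR). OAS1 was stable, while IFI44 (0.55 ± 0.14) and STAT2, a subunit of the interferon-activated complex of transcription factors that fell (-0.24 ± 0.07), were not. Of 34 interferon gamma and antigen presentation genes 4 rose, namely the GTPases GBP1 (0.87 ± 0.22) and GBP2 (0.70 ± 0.17), the immunoproteasome subunit PSMB10 (0.33 ± 0.08) and APOL1 (0.98 ± 0.28), and HLA-DMA fell (-0.26 ± 0.08), all log2 fold changes ± SE. None of these 5 was stable. Interleukins 4 and 13 polarise M2 macrophages and signal through STAT6. Of the 14 genes tested of this response 2 fell and 0 rose, where 3.37% and 5.34% of all genes tested did. The transglutaminase TGM2 was at 0.25, 0.578 and 0.277 CPM in M2 medium, against 0.955, 0.738 and 1.15 CPM in control (log2 fold change of -1.34, SE 0.33, adjusted p = 0.0151 by edgeR). The other was the lipoxygenase ALOX15 (log2 fold change of -0.15, SE 0.04, adjusted p = 0.0386 by edgeR). Neither gene was stable. Without M2 replicate 1, without control replicate 1 and in the fit of M2 and control alone, 0 genes of this response were called. Of 22 IL-6, IL-10 and STAT3 genes, 2 passed the test upwards, JUNB (0.25) and LBP, and BCL6 (-0.24) and SOCS2 (-0.31) fell, none of them stable. LBP was at 0.344, 0.61 and 0.0792 CPM in M2 medium, against 0.0988, 0.0703 and 0.124 CPM in control. These groups overlapped near the level of 3 counts, and LBP was not tested in the fit of the 2 groups alone, so no fold is given.

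Cell cycle genes were slightly higher with M2 medium. Among the 33 genes of S phase and DNA replication 10 rose and 0 fell, and of 30 G2/M and mitosis genes 9 rose and 0 fell, with medians of 0.08 and 0.14 on the log2 scale. Over all genes tested, 5.34% rose and 3.37% fell. CCNB1 (chromosome 5, 69167150 to 69178245), the cyclin of mitotic entry, was the 1 stable gene of both lists, at 362, 328 and 282 CPM in M2 medium, against 234, 264 and 236 CPM in control (log2 fold change of 0.40, SE 0.07, adjusted p = 0.00375 by edgeR). CDK1, its kinase, was at 347, 324 and 278 CPM in M2 medium, against 242, 260.5 and 256 CPM in control (log2 fold change of 0.32, SE 0.07, adjusted p = 0.00782 by edgeR). PCNA, the sliding clamp of DNA replication, was at 275, 251 and 226 CPM in M2 medium, against 189.5, 207 and 209.9 CPM in control (log2 fold change of 0.31, SE 0.06, adjusted p = 0.00536 by edgeR). The groups of CCNB1, CDK1 and PCNA did not overlap, and in each of them replicate 3 was the lowest of the M2 libraries. RFC4 (0.30), GINS2 (0.35), the survivin gene BIRC5 (0.34) and the checkpoint target CDC20 (0.23) rose by similar amounts, and the groups of BIRC5 overlapped. In each of 3 settings, without control replicate 1, without M2 replicate 1 and with the 2 groups alone, 0 S phase genes and 1 G2/M gene were called. M0 medium, with the same controls, had 4 S phase genes higher and 1 lower, and 6 G2/M genes higher and 1 lower. Over all genes 7.07% were higher and 4.51% lower there. CCNB1 (0.33 ± 0.07), CDK1 (0.26 ± 0.07) and PCNA (0.25 ± 0.06) were among those higher. Between M2 and M0 medium 0 genes of either list differed.

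Ribosomal protein and respiratory chain genes were higher in M2 medium. Of 30 cytosolic ribosomal protein genes 18 rose and 0 fell (median 0.27), and of 33 nuclear genes for oxidative phosphorylation subunits 26 rose and 0 fell (median 0.32). Over all genes tested, 5.34% rose and 3.37% fell. All 30 and all 33 had a positive log2 fold change. RPS13 was at 21.0, 18.4 and 17.7 CPM in M2 medium, against 12.9, 12.0 and 11.5 CPM in control (log2 fold change of 0.65, SE 0.10, adjusted p = 0.00146 by edgeR). RPL4 was at 174, 176 and 170.3 CPM in M2 medium, against 144, 136 and 128 CPM in control (log2 fold change of 0.35, SE 0.06, adjusted p = 0.00375 by edgeR). COX6A1, a subunit of cytochrome c oxidase, was at 18.3, 18.6 and 14.7 CPM in M2 medium, against 10.3, 11.9 and 11.1 CPM in control (log2 fold change of 0.64, SE 0.11, adjusted p = 0.00323 by edgeR). The 18 and 26 rises depended on single libraries: the numbers of ribosomal protein and respiratory chain genes higher were 4 and 2 without M2 replicate 1, 4 and 8 without control replicate 1, 7 and 8 in the fit of M2 and control alone, and 2 and 0 without both first replicates. RPS13, RPL4 and COX6A1 were stable and their groups did not overlap. Over all 79 ribosomal protein genes tested, 13 were stable and higher, RPS29 (0.89 ± 0.18), RPS7 (0.88 ± 0.17) and RPL24 (0.76 ± 0.13) with the largest log2 fold changes. Ribosomal protein genes have near-identical processed copies, so their counts are uncertain. M0 medium, with the same controls, had 19 ribosomal protein and 21 respiratory chain genes higher, where 7.07% of all genes were. Between M2 and M0 medium 0 genes of these lists differed.

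The transcripts of both lists are short, with median lengths of 985 and 689.5 bases against 2572 over all 15077 tested genes of known length, and length moved with the M2 comparison. Across these genes the Spearman correlation between length and log2 fold change was -0.292, as a description in which all genes share the 6 libraries. With these genes divided by length into 10 bins, in the shortest bin the median log2 fold change was 0.10, with 182 genes higher and 13 lower, and in the longest bin it was -0.11, with 31 higher and 88 lower. The relation differed between libraries of 1 group. Against the mean of the 6, the correlation with length was -0.375, -0.162 and 0.0851 in the M2 libraries and 0.238, -0.124 and 0.371 in the control libraries, so the groups overlapped. In M0 medium over the same controls it was -0.337, and between M2 and M0 medium 0.0866. With the length trend removed from each library, 885 genes were higher (5.19%) and 541 lower (3.17%), of which 688 and 414 were also called with the trend left in. The medians then were 0.23 for ribosomal protein genes and 0.20 for respiratory chain genes, with 15 and 19 members higher. They were -0.16 for androgen receptor targets, with 15 lower, and -0.17 for hypoxia genes, with 13 lower. The part of length in the remaining changes was not tested further.

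**Figure D4:**
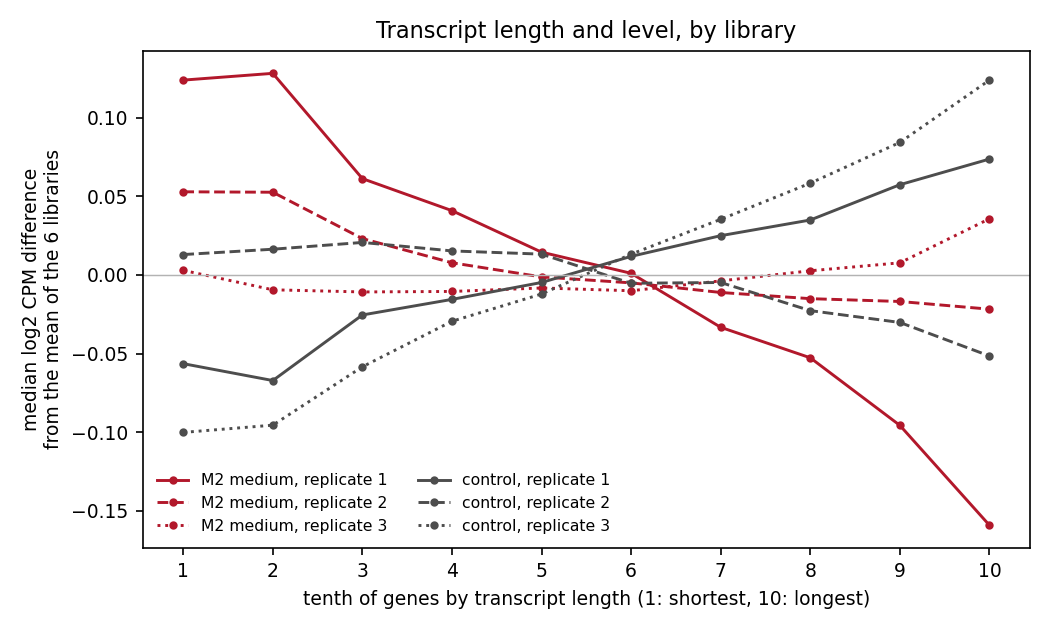
Median log2 CPM difference of each library from the mean of the 6 libraries, by bin of genes in order of transcript length (solid, dashed and dotted lines are replicates 1 to 3; red, M2 medium; grey, control). M2 replicate 1 falls with length and control replicates 1 and 3 rise with it, while M2 replicate 3 rises slightly and control replicate 2 falls slightly with length.

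**Figure D5:**
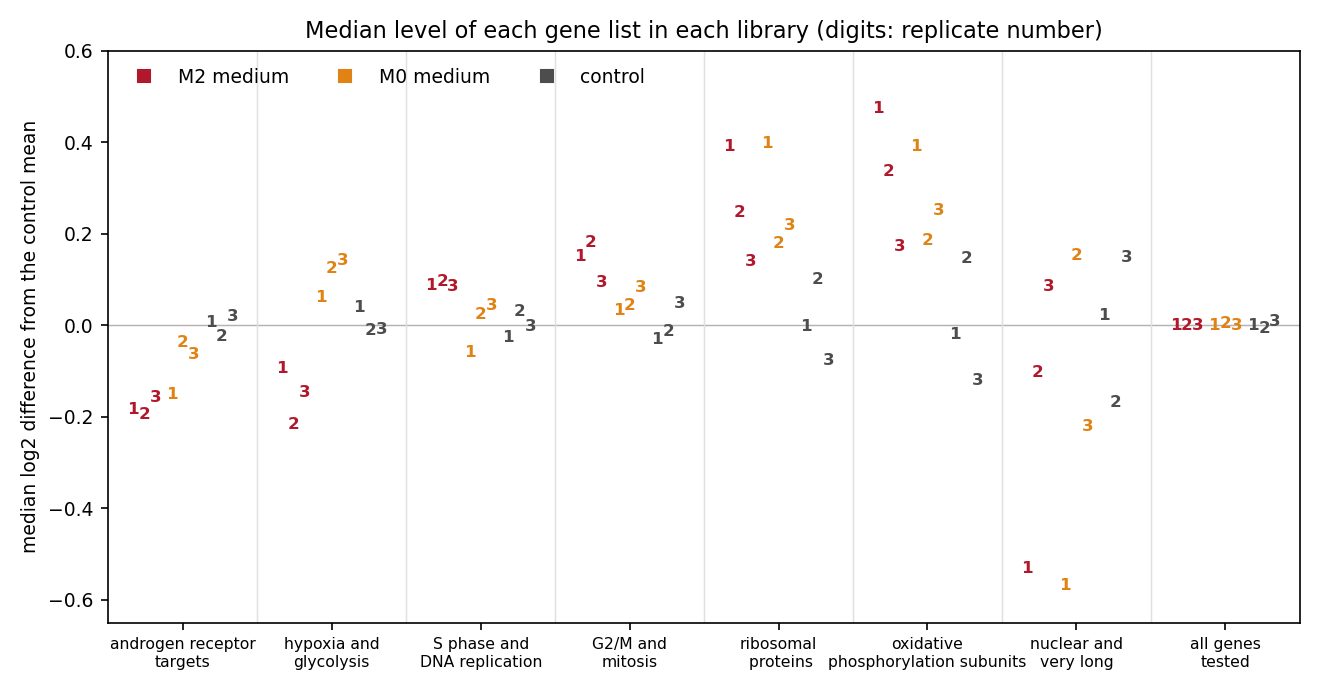
Median log2 difference of each gene list from the control mean in each library, with digits giving the replicate number (red, M2 medium; orange, M0 medium; grey, control). For androgen receptor targets all M2 libraries, between -0.20 and -0.16, lie below all control libraries, between -0.02 and 0.02, and for hypoxia genes M2 lies below both references. For nuclear and very long transcripts the libraries of M2 medium and control overlap.

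By library, the median of the androgen receptor targets relative to the control mean was -0.18, -0.20 and -0.16 in the M2 libraries and 0.01, -0.02 and 0.02 in the control libraries. For hypoxia and glycolysis it was -0.10, -0.22 and -0.15 in M2, 0.06, 0.12 and 0.14 in M0 and 0.04, -0.01 and -0.01 in control. For both lists every M2 library lay below every control library. For androgen receptor targets, 17 lower in the full fit, the number lower was 9 without M2 replicate 1, 9 without control replicate 1, 8 in the fit of the 2 groups and 7 without the first replicates of both groups. For hypoxia genes, 13 in the full fit, these numbers were 9, 5, 6 and 3. Respiratory chain genes stood at 0.47, 0.34 and 0.17 in M2 and -0.02, 0.15 and -0.12 in control, and control replicate 2 came close to the lowest M2 library. A list of 23 nuclear and very long transcripts, taken as a sign of RNA quality, stood at -0.53, -0.10 and 0.09 in M2 and 0.02, -0.17 and 0.15 in control, with overlap. Its median log2 fold change of M2 over control was -0.19, with 21 negative and 2 positive values, a shift as large as that of the androgen receptor targets. With the length trend removed the median was -0.07. The 1 member called, MDN1, went the other way (0.23). The part of this list in the other results was not tested.

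Lists of cell identity and stress changed in single genes, where 5.34% of all genes tested were higher and 3.37% lower. A list with 1 called member shows no result as a whole. Of 21 luminal prostate genes 2 fell, among them TMPRSS2, given above, and of 16 stemness-associated genes 1 fell. It was ALDH1A3, an aldehyde dehydrogenase, at 104, 107 and 111 CPM in M2 medium, against 130.5, 127 and 119 CPM in control (log2 fold change of -0.23, SE 0.05, adjusted p = 0.00943 by edgeR). No basal gene of 7 was called, the abundant LAMA3 (-0.05 ± 0.07) and DST (-0.10 ± 0.17) included, and no neuroendocrine gene of 7, SYT4 (-0.03 ± 0.05) and ENO2 (-0.16 ± 0.09) included. The matrix protease MMP7 was the 1 epithelial and mesenchymal gene of 15 that rose (log2 fold change of 0.83, SE 0.19, adjusted p = 0.0103 by edgeR). Its groups overlapped, at 5.5, 4.81 and 2.77 CPM in M2 medium, against 2.17, 2.04 and 3.23 CPM in control. None of 12 Wnt targets was called, CCND1 (-0.17 ± 0.06) and MYC (-0.10 ± 0.05) being the most abundant, and of 21 TGF-beta and BMP genes PMEPA1 and GDF15 fell and JUNB rose. Of 26 p53 targets the death receptor gene FAS rose (0.39 ± 0.12). In the immediate early list of 22, FOS was at 2.09, 1.12 and 1.27 CPM in M2 medium, against 2.83, 2.49 and 3.41 CPM in control and fell (log2 fold change of -0.95, SE 0.20, adjusted p = 0.0082 by edgeR). FOSL2 fell (-0.34 ± 0.08) and JUNB rose (0.25 ± 0.08). ALDH1A3, MMP7, GDF15, FAS, FOS, FOSL2 and JUNB were not stable.

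Metabolic lists were mixed, where 5.34% of all genes tested were higher and 3.37% lower. Of 33 cholesterol and fatty acid synthesis genes HSD17B7 (0.36) and MSMO1 (0.24) rose. ACLY, which makes acetyl-CoA from citrate (-0.23), and the regulator SREBF2 (-0.21) fell. In the list of 31 unfolded protein and ATF4 genes, the serine synthesis gene PSPH rose (0.25) and the stress sensor ERN1 (-0.28) and the amino acid transporter SLC7A5 (-0.27) fell. Of 15 chaperone genes HSPA8 (0.28), HSPE1 (0.33) and DNAJB1 (0.16) rose. In the list of 21 NRF2, ferritin and metallothionein genes, which also holds the transferrin receptor TFRC, 5 rose and 0 fell. They were TFRC, the redox proteins TXN (0.28), TXNRD1 (0.24) and PRDX1 (0.20), and NQO1 (0.23). These are log2 fold changes over control at an edgeR adjusted p under 0.05, and only TFRC among them was stable. In this list the number higher was 2 without M2 replicate 1, 2 without control replicate 1 and 1 in the fit of M2 and control alone. Of 17 housekeeping genes 3 rose, among them TFRC and PPIA (0.35).

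Of the list of 31 macrophage markers, taken as a sign of THP-1 RNA carried over with the medium, 10 could be tested and 0 were called. Their summed level was 270.5, 254 and 246 CPM in the M2 libraries, 274, 235 and 265 CPM in the M0 libraries and 229, 233 and 230.3 CPM in the control libraries. Nearly all of it was CSF1R, the receptor of a macrophage growth factor, which had 8398, 7723 and 6010 counts in the M2 libraries and 6761, 6397 and 7190 counts in the control libraries. The lysosomal marker CD68 was at 4.94, 4.30 and 5.23 CPM in the M2 libraries and 4.61, 5.20 and 5.00 CPM in the control libraries, with overlap. Between 16 and 18 of the 31 markers were at 0 counts in the M2 libraries, and 18 or 19 in the control libraries. Of 10 defining markers, 3 to 6 were at 0 in M2 and 3 to 4 in control. The sum was higher in all 3 M2 libraries than in control, and so was CSF1R, at 262, 248 and 238 CPM against 223, 225 and 223 CPM. CSF1R was not called (log2 fold change of 0.16, SE 0.06, adjusted p = 0.0776 by edgeR). The control cells, which received no conditioned medium, expressed it too, so the sum mainly follows this 1 gene. The part of the sum in the other results was not tested.

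The pluripotency genes and the stem cell marker named in the series title had few counts. NANOG had 0 counts in the 9 libraries of M2, M0 and control, where 3 counts are 0.0939 to 0.122 CPM, and SOX2 had 1 count, in an M2 library. CD44, a receptor for hyaluronan, was at 0.406, 0.193 and 0.277 CPM in M2 medium, against 0.362, 0.632 and 0.683 CPM in control, with overlapping groups and no call (log2 fold change -0.92 ± 0.39 SE, edgeR adjusted p = 0.138).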

How the data were processed

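PolyA RNA of LNCaP cells was sequenced as paired-end reads in 18 libraries, 3 per group, of which the 6 of M2 medium and control are compared here. The table the authors deposited holds expected counts of 70507 RefSeq transcripts in steps of 0.5. The submitters' processing notes name Trimmomatic, BWA 0.7.17, HOMER 4.10 and the build hg38, and the role of each tool, the use of strand and the handling of reads with several matches were not given in the sources used here. Reads from antisense or overlapping genes and from near-identical copies can therefore not be told apart.

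Each gene was taken as its transcript with the highest total count, for 28084 genes in all, among them 12544 with several transcripts. The 334 transcripts without a gene name, 0.0883% to 0.1087% of the counts per library, were left out of library sizes and tests. Counts were rounded to whole numbers, with 0.5 rounded up. After edgeR's filter on low counts 17063 genes were tested with the quasi-likelihood test of edgeR 4.0.16 (R 4.3.3) with TMM scaling, 1 model over all 18 libraries and 6 groups, and Benjamini-Hochberg adjustment over all genes tested at 0.05. SE is the standard error of a log2 fold change. The steps were tested on simulated data with known changes. In the libraries of M2, M0 and control, 3 counts were 0.0939 to 0.122 CPM, and such floors cover counting error only. Names, coordinates and promoters came from RefSeq (GRCh38.p14), and transcript lengths, known for 88.4% of the genes tested, from GENCODE annotation. The length trend was removed from each library by a lowess curve with a span of 0.3.

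The 19 alternatives were DESeq2 size factors, DESeq2 1.42.0, limma 3.58.1 voom with sample quality weights, 2 other filters, the longest transcript per gene, fits of fewer groups, a replicate block, removal of the length trend and each library left out, 2 of them (the fit of 2 groups with the length trend removed, and the fit without both first replicates) chosen after seeing the data. Members and gene lists were chosen with earlier results of these data known. Genes were named by rule: the 8 largest rises and falls without overlap and at least 1 CPM, the 10 largest stable changes per direction, up to 3 called members per list and direction or 2 abundant ones where none was called, the 5 largest differences from M0 medium, and the title genes. Other genes named were chosen after their values were seen. Some genes that entered the counts are not reported here by name.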

Additional observations from a re-analysis of the deposited data

How the results depend on the processing

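The count of genes called depended on the libraries and groups in the fit. Against 911 higher and 575 lower genes, limma-voom with sample quality weights gave 2442 and 2076, DESeq2 1170 and 871, the fit without the groups with M1 medium 394 and 193, the fit of the 2 groups alone 142 and 54, that fit with the length trend removed 357 and 184, and the fit without the first replicates of both groups 22 and 28. With 1 library left out at a time the counts ran between 86 and 1559 higher and between 63 and 1085 lower, lowest without M2 replicate 1 (86 higher and 79 lower) and without control replicate 1 (99 and 63), and 281 and 121 without M2 replicate 2. DESeq2 size factors, both other filters, the longest transcript per gene and the removed length trend gave between 870 and 1013 higher and between 541 and 625 lower. All 1486 called genes kept their direction in each fit with a library left out, but these fits share most libraries with the full fit that picked the genes. For M2 over M0 medium, 0 higher and 18 lower, DESeq2 gave 3 and 42, limma-voom 15 and 129, no filter on low counts 4 and 36, the fit of the 2 groups 3 and 2, and the fit without the groups with M1 medium 0 and 2. With 1 library left out they ran between 0 and 1 higher and between 0 and 35 lower. The causes were not tested.

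The log2 fold change of some genes that were not called turned from negative to positive. Over the fits with 1 library left out, it ran from -0.12 to 0.026 for LAMA3, from -0.30 to 0.027 for DST, from -0.055 to 0.014 for SYT4 and from -0.093 to 0.039 for CD68 (the highest without M2 replicate 2). That of LAMA3 was 0.042 with the length trend removed, 0.042 with the block added, 0.026 without M2 replicate 1, 0.01 without control replicate 3, 0.0502 in the fit of 2 groups with the trend removed and 0.0093 without both first replicates. Those of DST in the same settings, control replicate 3 apart, were 0.013, 0.012, 0.027, 0.023 and 0.035. SYT4 had 0.012 with the trend removed, 0.011 with the block added, 0.014 without control replicate 3 and 0.015 in the fit of 2 groups with the trend removed. PGK1, also not called over control, went the other way, with 0.07 in the full fit, -0.05 without M2 replicate 1 and -0.03 without both first replicates.

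The labels do not say whether libraries of the same number belong together, and correlations over 3 replicates cannot settle it. The deviations of same-numbered M2 and control libraries correlated at -0.0278, -0.0521 and 0.0744, and not every library correlated best with its own number. Those of same-numbered M2 and M0 libraries correlated at 0.154, -0.00114 and 0.00886. With the replicate block 886 genes were higher and 572 lower, with the length trend removed as well 825 and 505, and for M2 over M0 medium 0 were higher and 16 lower. With 3 libraries of 24584134.5 to 31940226 counts each, genes near 3 counts could not be compared.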

Other observations

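Some noncoding RNAs differed between the groups, among them nuclear-encoded ribosomal RNA, which a library of polyadenylated RNA should largely exclude. All 13 ribosomal RNA gene copies tested, which share reads, were lower in M2 medium than in control, with a median log2 fold change of -1.28. RNA28SN5, which encodes 28S ribosomal RNA, was at 1201, 305 and 892 CPM in M2 medium, 1153, 1044 and 1613 CPM in M0 medium and 1501, 3158 and 1366 CPM in control. M2 replicate 2 was the lowest and control replicate 2 the highest of these libraries, and the M2 and M0 libraries overlapped. RN7SL1, the RNA of the signal recognition particle, was at 41.3, 46.5 and 49.998 CPM in M2 medium, against 25.4, 29.8 and 14.7 CPM in control, with control replicate 3 the lowest (log2 fold change of 0.98, SE 0.20, adjusted p = 0.00754 by edgeR). MT-RNR1, the small ribosomal RNA of mitochondria, was at 369, 381 and 361 CPM in M2 medium, against 268, 256 and 284 CPM in control, without overlap (log2 fold change of 0.46, SE 0.07, adjusted p = 0.00101 by edgeR). The snoRNA SNORA52 (1.68 ± 0.36) and the snoRNA host gene SNHG9 (0.98 ± 0.17) were among the largest stable rises in log2 fold change ± SE.

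CLEC7A, a receptor for fungal glucans on myeloid cells, was a stable rise in these epithelial cells, at 7.28, 7.06 and 7.36 CPM in M2 medium, 6.57, 5.4 and 6.33 CPM in M0 medium and 4.35, 4.22 and 5.46 CPM in control (M2 over control, log2 fold change of 0.62, SE 0.12, adjusted p = 0.00377 by edgeR). The M2 libraries of CLEC7A lay above all control libraries. None of the 10 macrophage markers tested was called between M2 medium and control.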
